A study of Mus musculus with 24 samples.

Results

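Mitochondrial DNA (mtDNA) of the mouse carries 13 protein genes, and 7 of them had at least 10 reads in each of 24 libraries of mRNA from bone marrow–derived macrophages (BMDM). These 7 genes, *mt-Nd1*, *mt-Nd2*, *mt-Nd4*, *mt-Nd5*, *mt-Nd6*, *mt-Cytb*, and *mt-Co1*, were chosen by that minimum among the 37 genes annotated on mtDNA. The whole count table held 56884 genes. The minimum is a property of the counts and was not tested. Just inside it was *mt-Nd6*, with 30 counts in its lowest library, and just outside was the tRNA gene *mt-Tw*, with 1 to 32 counts. All 7 genes passed the filter on low counts and were among the 13679 genes tested.

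The proteins of mtDNA are core subunits of the respiratory chain, which moves electrons from NADH to oxygen and pumps protons across the inner mitochondrial membrane. Both strands of mtDNA are transcribed into long polycistronic RNAs, from which tRNAs are cut out. Most of the mRNAs between them are released in this way and polyadenylated. Most mRNAs come from the heavy-strand transcript, and *mt-Nd6* is the one protein gene of the light-strand transcript. The mRNAs cut from the same transcript can differ in their steady-state levels through processing and decay.

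The BMDM came from 4 wild-type C57BL/6J mice, female and 9 weeks old, and were differentiated for 6 days in macrophage colony-stimulating factor (M-CSF). They were then left naive or treated for 24 hours with interleukin-4 (IL-4) and IL-13, each at 20 ng/ml, alone or with an inhibitor that was also given for 1 hour beforehand. The inhibitors were tunicamycin at 5 µg/ml, which blocks N-linked glycosylation in the endoplasmic reticulum, Sal003 at 10 µM, which slows dephosphorylation of the translation factor eIF2α, and oligomycin at 1 µM, which blocks the mitochondrial adenosine triphosphate (ATP) synthase. One of 2 oligomycin groups also received ISRIB at 1 µM, a compound that opposes the effect of phosphorylated eIF2α. The sample titles and the library names disagree on which group this was. The 4 libraries that carry ISRIB by title but not by library name are called oligomycin set A here, and the 4 that carry it by library name but not by title are called oligomycin set B. Each of the 6 groups held 1 library from each of the mice numbered 1, 2, 4, and 5, and the 4 values of a group are listed in that order of mice. All inhibitor groups contained IL-4/IL-13, and the same 4 IL-4/IL-13 libraries served as the reference for the naive group and for every inhibitor.

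The libraries held 16238727 to 26725278 gene counts, with a median of 18999998. The 7 transcripts together took 0.198 to 1.08% of these reads, from 0.491 to 0.783% in naive libraries and 0.688 to 1.08% in IL-4/IL-13 libraries down to 0.198 to 0.269% in oligomycin set B. All 7 macrophage markers examined, among them *Adgre1* and *Csf1r*, were at 1 CPM or more in every library (CPM, counts scaled to an effective library total of 1000000). Their summed level was 30582 to 36302 CPM in naive libraries, 11370 to 13771 CPM with IL-4/IL-13, and 8721 to 17650 CPM with the inhibitors. Summed levels of 8 markers of neutrophils and their precursors were 51.3 to 88.1 CPM in naive libraries, 37.6 to 63.3 CPM with IL-4/IL-13, 5.24 to 6.43 CPM with tunicamycin, 11.1 to 15.1 CPM with Sal003, 5.00 to 7.91 CPM with oligomycin in set A, and 24.0 to 30.0 CPM with oligomycin in set B. Sums of 3 stromal markers ranged from 3.46 to 128 CPM, the highest sums for T cells, B cells, dendritic cells, and mast cells or basophils (3 markers each) were 0.0569, 3.24, 6.37, and 0.958 CPM, and 2 of 3 erythroid markers had 0 counts in every library. The part of these other cells in the results was not tested, and in bulk RNA fewer cells of a type, less RNA per cell, and fewer mtDNA copies per cell cannot be told apart.

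In the GRCm39 build the 7 genes lie on chrM, which is 16299 bases long, with no introns. On the + strand, in the direction of the heavy-strand transcript, are *mt-Nd1* (chrM:2751-3707), *mt-Nd2* (chrM:3914-4951), *mt-Co1* (chrM:5328-6872), *mt-Nd4* (chrM:10167-11544), *mt-Nd5* (chrM:11742-13565), and *mt-Cytb* (chrM:14145-15288). The only gene on the − strand is *mt-Nd6* (chrM:13552-14070). The first 24 bases of each gene follow, 5′ to 3′ on the coding strand and read from the GRCm39 genome, with the start codon in capitals. They are given because the mitochondrial code allows starts other than ATG and because they mark where each reading frame begins. That of *mt-Nd4* begins inside *mt-Nd4l* (chrM:9877-10173), with which it shares an mRNA.
mt-Nd1: GTGttctttattaatatcctaaca
mt-Nd2: ATAaatcctatcacccttgccatc
mt-Nd4: ATGctaaaaattattcttccctca
mt-Nd5: ATCaatattttcacaacctcaatc
mt-Nd6: ATGaataattatatttttgtttta
mt-Cytb: ATGacaaacatacgaaaaacacac
mt-Co1: ATGttcattaatcgttgattattc

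The light-strand gene stands apart in base composition over the whole gene, which the first 24 bases alone do not show. Over its full length its coding strand held 28.1% G and 5.97% C, whereas the 6 heavy-strand genes held 7.996 to 16.1% G and 23.8 to 27.7% C. The 3′ ends carry a second feature. The last 24 bases of *mt-Nd4*, *mt-Cytb*, *mt-Nd5*, and *mt-Nd6* follow, with the bases that make up or begin the stop codon in capitals. A single T closes *mt-Nd4* and *mt-Cytb* in the annotation, and such stops are completed by the poly(A) tail, so that polyadenylation of these 2 mRNAs is part of their reading frame.
mt-Nd4 end: aactaattacaggcctgacaataT
mt-Cytb end: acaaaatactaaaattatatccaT
mt-Nd5 end: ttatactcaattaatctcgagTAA
mt-Nd6 end: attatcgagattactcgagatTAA

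The last 14 bases of *mt-Nd5* and *mt-Nd6* are the same stretch of mtDNA read from opposite strands (chrM:13552-13565), TTAATCTCGAGTAA for *mt-Nd5* and TTACTCGAGATTAA for *mt-Nd6*. Whether reads were assigned by strand is not stated in the sources used here. In the same table, 58 nuclear protein genes had exons covered to at least 90% by a gene on the opposite strand. Of these 58, 19 had a mean of 10 counts or more, and 14 had a mean of 100 counts or more. The numbers to be met with or without assignment by strand were not computed, so the setting is not inferred from them. Reads of the *mt-Nd5* end and the *mt-Nd6* end would be told apart only if strand was used. The same holds for the rest of *mt-Nd6*, since the heavy-strand transcript runs past it from *mt-Nd5* to *mt-Cytb*. How many *mt-Nd6* counts came from heavy-strand RNA was not tested.

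The 6 other protein genes of mtDNA, which had almost no counts, were those with exact copies in the nuclear genome over all or nearly all of their length. The longest copy, on chromosome 1 (chr1:24650616-24655269, − strand), matched mtDNA positions 6390 to 11042 over 4654 aligned bases at 99.936% identity, with 2 mismatches and 1 gap. Of all stretches of 150 bases, the length of a read, 100% in *mt-Co2*, *mt-Atp8*, *mt-Atp6*, *mt-Co3*, and *mt-Nd4l* and 98.5% in *mt-Nd3* had an exact copy in the nuclear genome. These 6 genes had 0 counts in all 24 libraries, except 1 count of *mt-Nd3* in 1 library, and 6.24 to 7.41% of the reads in each library were set aside by the counting as aligned to more than 1 place. Among the 7 genes, the share was 0% in *mt-Nd1*, *mt-Nd2*, *mt-Nd5*, *mt-Nd6*, and *mt-Cytb*, 23.6% in *mt-Co1*, and 59.2% in *mt-Nd4*. This left 1066 stretches of *mt-Co1* and 502 of *mt-Nd4* without an exact copy. How reads were spread along each gene was not measured.

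**Figure D1:**
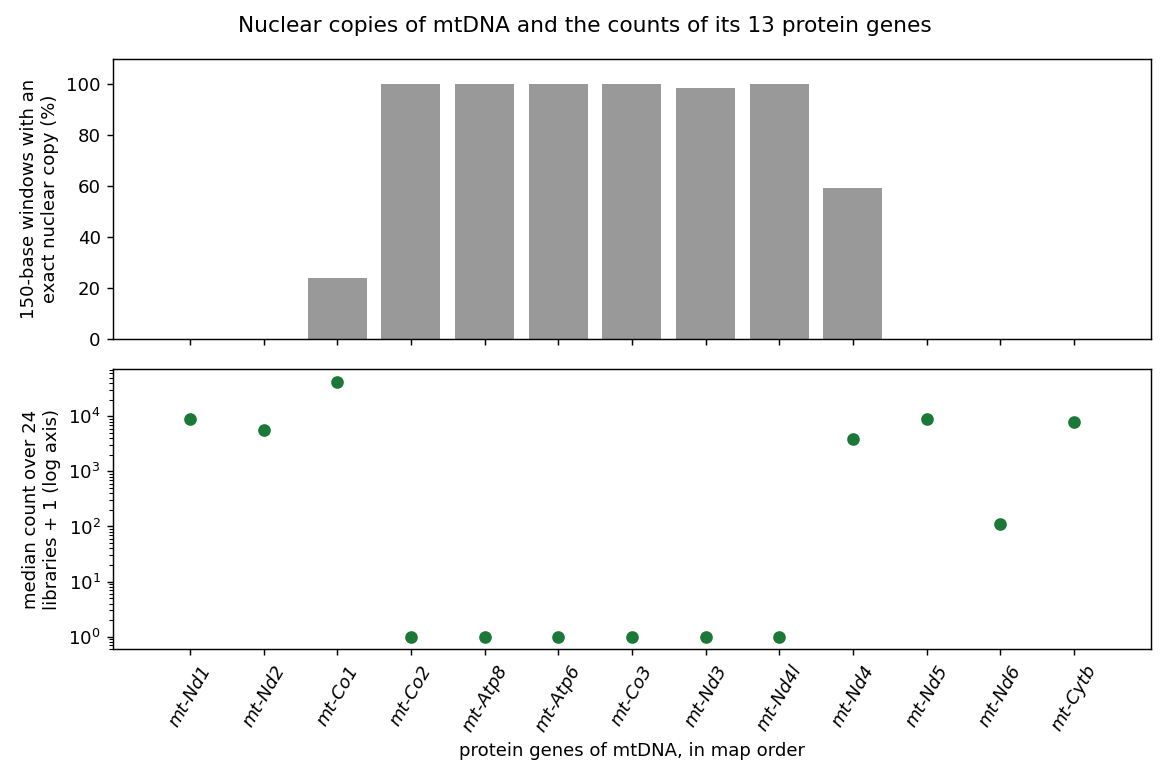
The 13 protein genes of mtDNA in map order. Bars give the percentage of 150-base windows of a gene with an exact copy in the nuclear genome, and points the median count over 24 libraries plus 1 on a log axis. The 6 genes at or near 100% are at a median of 0 counts, and the 7 genes below 60% have medians from 111.5 counts in *mt-Nd6* to 41909 counts in *mt-Co1*.

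Levels of different genes are compared per length, as CPM per kilobase of unique sequence, counted as the starts of 150-base stretches without an exact nuclear copy. On this scale *mt-Co1* was highest in every group and *mt-Nd6* lowest. In naive BMDM the mean levels were 3318 ± 677 for *mt-Co1*, 698 ± 152 for *mt-Nd1*, 640 ± 118 for *mt-Nd4*, 605 ± 112 for *mt-Cytb*, 393 ± 75.6 for *mt-Nd2*, 361 ± 101 for *mt-Nd5*, and 18.6 ± 4.77 for *mt-Nd6* (SD, n = 4). The order among *mt-Nd1*, *mt-Nd4*, and *mt-Cytb* lies within these SDs. In oligomycin set B the corresponding levels were 1245 ± 169 for *mt-Co1* and 5.13 ± 0.802 for *mt-Nd6*, with the other 5 genes between 147 and 261. The libraries were made with an mRNA kit that selects polyadenylated RNA, so that a level here also depends on the poly(A) tail, which was not measured. How much of the low level of *mt-Nd6*, and of its ratios to the other genes, comes from this selection was not tested.

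In each comparison below, a gene was called at a Benjamini-Hochberg adjusted *P* under 0.05 over all 13679 genes tested (edgeR quasi-likelihood test). The number of genes also changed at least 2.5-fold, a cutoff the study uses, is given beside it. IL-4/IL-13 raised 6 of the 7 transcripts, by 0.54 to 0.88 on the log2 scale, where 30.1% of all genes tested rose. *mt-Co1* was the exception, at 0.29 (SE 0.16, adjusted *P* = 0.119). None rose 2.5-fold (5.39% of all genes did), and in 4 of the 7 the IL-4/IL-13 and naive libraries did not overlap, as in 49.7% of all genes. Against IL-4/IL-13, tunicamycin lowered 7 of 7 (37.6% of all genes fell), 2 of them at least 2.5-fold (14%), and the groups did not overlap in 7 (73.9%). Sal003 lowered 5 of 7 (24.6% of all genes fell), 4 of them at least 2.5-fold (5.04%), without overlap in 5 (50.3%). Oligomycin in set A lowered 7 of 7 (32.2% of all genes fell), 6 of them at least 2.5-fold (7.96%), without overlap in 7 (64.8%). Oligomycin in set B lowered 7 of 7 (26.4% of all genes fell), each at least 2.5-fold (5.02%) and without overlap (50.8%). The median log2 fold change of the 7 was 0.78 with IL-4/IL-13, against -0.02 over all genes, and -1.09, -1.36, -1.63, and -2.07 with tunicamycin, Sal003, oligomycin set A, and oligomycin set B, against 0.01, 0.00, 0.01, and 0.00 over all genes.

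**Figure D2:**
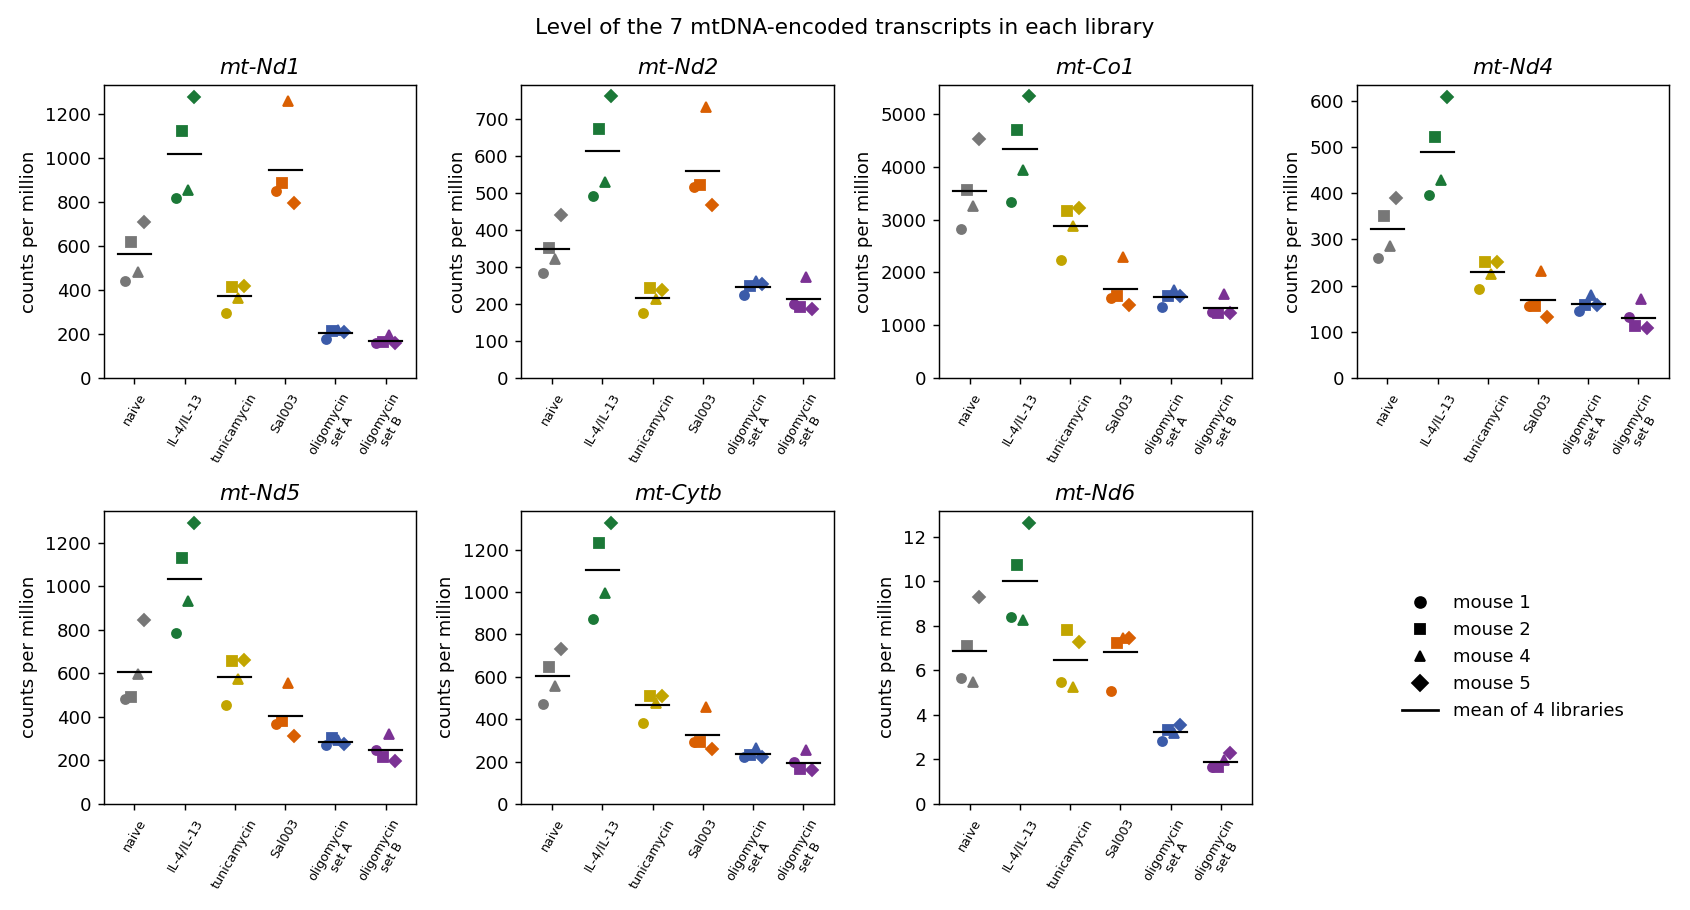
Level of each of the 7 transcripts in CPM (linear axes from 0) in the 24 libraries, by group. Marker shapes stand for the 4 mice and lines for the mean of 4 libraries. IL-4/IL-13 libraries are the highest group for all 7 genes, Sal003 libraries stay near them only in *mt-Nd1* and *mt-Nd2*, and the oligomycin sets have the lowest means in 6 genes, while *mt-Nd2* in tunicamycin (217 CPM) is near oligomycin sets A (247 CPM) and B (213 CPM).

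The first of the complex I genes along the heavy-strand transcript is *mt-Nd1*, which encodes a membrane subunit beside the quinone site of the enzyme. Its level in mice 1, 2, 4, and 5 was 443, 620, 484, and 708 CPM in naive BMDM and 819, 1123, 853, and 1277 CPM with IL-4/IL-13. All IL-4/IL-13 libraries were above all naive libraries, with a log2 fold change of 0.85 (SE 0.16, adjusted *P* = 4.72e-05). With tunicamycin it was 294, 414, 366, and 420 CPM, and with Sal003 849, 885, 1258, and 794 CPM. Tunicamycin lowered it 2.72-fold (log2 fold change -1.45, SE 0.16, adjusted *P* = 1.11e-08), with every mouse lower, from -1.60 to -1.22 within mice. Sal003 did not separate from IL-4/IL-13, with a log2 fold change of -0.11 (SE 0.16, adjusted *P* = 0.605), higher in 2 mice and lower in 2, from -0.69 to 0.56 within mice. With oligomycin it was 180, 213, 217, and 209 CPM in set A, and set B had 161, 166, 198, and 158 CPM. These were the largest falls among the 7 genes in each set, 4.97-fold in set A (log2 fold change -2.31, SE 0.17, adjusted *P* = 5.92e-12) and 5.97-fold in set B (-2.58, SE 0.17, adjusted *P* = 2.33e-12). The falls of *mt-Cytb*, -2.24 in set A and -2.51 in set B, lay within these SEs, so the 2 genes are not ranked apart.

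Encoded next to it is *mt-Nd2*, an antiporter-like subunit of the proton-pumping arm. Naive libraries had 284, 351, 321, and 441 CPM and IL-4/IL-13 libraries 491, 671, 530, and 762 CPM. The groups did not overlap (log2 fold change 0.81, SE 0.15, adjusted *P* = 6.58e-05). Its levels were 175, 242, 214, and 237 CPM with tunicamycin and 516, 521, 732, and 468 CPM with Sal003. Under tunicamycin it fell more than any other of the 7, 2.83-fold (log2 fold change -1.50, SE 0.16, adjusted *P* = 4.29e-09). As with *mt-Nd1*, Sal003 and IL-4/IL-13 libraries overlapped, with 2 mice higher and 2 lower (log2 fold change -0.13, SE 0.15, adjusted *P* = 0.492). Oligomycin set A held 224, 248, 261, and 253 CPM and set B 199, 193, 273, and 188 CPM. Here *mt-Nd2* had the smallest fall of the 7, 2.49-fold in set A (log2 fold change -1.32, SE 0.16, adjusted *P* = 5.81e-08) and 2.88-fold in set B (-1.52, SE 0.16, adjusted *P* = 9.72e-09).

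The antiporter-like subunit *mt-Nd4* lies further along the transcript. It had 260, 350, 287, and 389 CPM in naive libraries and 397, 521, 429, and 609 CPM with IL-4/IL-13, an increase in every mouse (log2 fold change 0.60, SE 0.16, adjusted *P* = 0.00241). Levels were 193, 251, 224, and 252 CPM with tunicamycin and 157, 156, 231, and 133 CPM with Sal003. Neither group overlapped with IL-4/IL-13, and the falls were 2.12-fold (log2 fold change -1.09, SE 0.16, adjusted *P* = 1.74e-06) and 2.89-fold (-1.53, SE 0.17, adjusted *P* = 2.75e-08). In oligomycin set A it was at 145, 158, 180, and 158 CPM and in set B at 133, 112, 171, and 108 CPM, which is 3.05-fold and 3.74-fold lower than with IL-4/IL-13 (adjusted *P* = 5.42e-09 and 6.83e-10). Mouse 4 gave the highest library of Sal003 and of both oligomycin sets.

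Another antiporter-like subunit, at the far end of the arm, is *mt-Nd5*. Naive libraries had 483, 494, 597, and 845 CPM and IL-4/IL-13 libraries 785, 1131, 932, and 1294 CPM. It rose in each mouse, by 0.614 to 1.195 on the log2 scale, while the groups overlapped because naive mouse 5 was above IL-4/IL-13 mouse 1 (log2 fold change 0.78, SE 0.19, adjusted *P* = 0.000854). Levels were 456, 655, 573, and 660 CPM with tunicamycin and 368, 380, 557, and 312 CPM with Sal003. Both fell, 1.77-fold (log2 fold change -0.82, SE 0.19, adjusted *P* = 0.00033) and 2.56-fold (-1.36, SE 0.19, adjusted *P* = 1.4e-06). Oligomycin set A had 269, 304, 292, and 278 CPM and set B 246, 218, 322, and 200 CPM, 3.63-fold and 4.20-fold lower (adjusted *P* = 5.04e-09 and 1.7e-09).

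The light-strand transcript *mt-Nd6*, a small membrane subunit of complex I, was counted with 30 to 213 reads per library, where counting alone gives a relative error of 18.3% at the lowest. It had 5.66, 7.11, 5.47, and 9.29 CPM in naive libraries and 8.41, 10.7, 8.27, and 12.6 CPM with IL-4/IL-13. Every mouse was higher with IL-4/IL-13, and the groups overlapped (log2 fold change 0.54, SE 0.17, adjusted *P* = 0.00768). Levels were 5.49, 7.81, 5.28, and 7.29 CPM with tunicamycin and 5.09, 7.22, 7.47, and 7.46 CPM with Sal003. Both were below IL-4/IL-13 without overlap, by 1.54-fold (log2 fold change -0.62, SE 0.17, adjusted *P* = 0.00179) and 1.47-fold (-0.55, SE 0.17, adjusted *P* = 0.00783), and both means, 6.47 and 6.81 CPM, were close to the naive mean of 6.88 CPM. Oligomycin set A had 2.84, 3.34, 3.19, and 3.55 CPM and set B 1.68, 1.65, 1.98, and 2.28 CPM. These falls from IL-4/IL-13 were 3.09-fold (adjusted *P* = 1.95e-08) and 5.19-fold (adjusted *P* = 1.95e-10).

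Complex III has a single subunit from mtDNA, cytochrome b, encoded by *mt-Cytb*. Naive libraries had 474, 647, 558, and 731 CPM and IL-4/IL-13 libraries 873, 1230, 994, and 1326 CPM. The groups did not overlap (log2 fold change 0.88, SE 0.17, adjusted *P* = 7.41e-05). Its levels were 383, 511, 474, and 508 CPM with tunicamycin and 293, 294, 456, and 258 CPM with Sal003. It fell 2.36-fold with tunicamycin (log2 fold change -1.24, SE 0.17, adjusted *P* = 4.04e-07), and its 3.40-fold fall with Sal003 was the largest among the 7 (-1.77, SE 0.17, adjusted *P* = 4.47e-09). Oligomycin set A had 221, 232, 262, and 221 CPM and set B 197, 164, 256, and 160 CPM, 4.73-fold and 5.70-fold lower (adjusted *P* = 3.4e-11 and 1.13e-11).

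Complex IV, cytochrome c oxidase, is represented by its catalytic core subunit *mt-Co1*, the most abundant of the 7 transcripts. Naive libraries had 2821, 3558, 3249, and 4521 CPM and IL-4/IL-13 libraries 3338, 4694, 3936, and 5339 CPM. All 4 mice were higher with IL-4/IL-13, by 0.24 to 0.40 on the log2 scale, but the groups overlapped and the gene was not called in a model without a term for the mouse. With a term for the mouse the adjusted *P* was 0.0504, and without a filter on low counts it was 0.0136. Levels were 2227, 3165, 2878, and 3214 CPM with tunicamycin and 1515, 1556, 2290, and 1384 CPM with Sal003. *mt-Co1* had the smallest fall of the 7 with tunicamycin, 1.51-fold (log2 fold change -0.59, SE 0.16, adjusted *P* = 0.00176), and fell 2.57-fold with Sal003 (-1.36, SE 0.16, adjusted *P* = 1.26e-07). Oligomycin set A had 1348, 1555, 1673, and 1553 CPM and set B 1245, 1229, 1596, and 1237 CPM, 2.82-fold and 3.26-fold lower (adjusted *P* = 1.23e-08 and 2.76e-09).

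The order of the 6 groups by mean level began with IL-4/IL-13 and ended with oligomycin set B for all 7 genes, and the groups between changed places. From the highest level down, Sal003 had rank 2 in *mt-Nd1* and *mt-Nd2*, rank 3 in *mt-Nd6*, and rank 4 in *mt-Nd4*, *mt-Nd5*, *mt-Cytb*, and *mt-Co1*. Of 35 pairs of neighbours in these orders, 17 did not differ at an adjusted *P* under 0.05. Among these 17 were IL-4/IL-13 and Sal003 in *mt-Nd1* and *mt-Nd2*, naive and tunicamycin in *mt-Nd5*, *mt-Cytb*, and *mt-Co1*, and the 2 oligomycin sets in 5 genes.

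The inhibitors did not lower the 7 transcripts evenly. Because the heavy-strand mRNAs share a precursor, the ratio of 2 transcripts within the same library was computed for all 21 pairs, which no normalization can change. Each comparison was tested with an exact two-sided permutation test of 4 libraries against 4, whose smallest possible *P* is 0.0286, with adjustment over 126 tests. This test ignores that the groups share the same 4 mice, whereas the SDs given with the ratios are those of differences within mice. A test of the ratios paired by mouse was not run. The ratios were added after the single genes had been seen. They are built from the same 7 genes and are not independent of each other. The smallest *P* needs only that the 2 groups do not overlap. Among single genes, 41.6 to 73.9% of all tested did not overlap in these comparisons. How often ratios of other gene pairs reach it was not computed. At an adjusted *P* of 0.0429, the smallest reached, 11 of 21 ratios differed between IL-4/IL-13 and naive libraries, 19 with tunicamycin, 18 with Sal003, 17 with oligomycin set A, and 16 with set B, each against IL-4/IL-13, and 3 between the 2 oligomycin sets.

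In Sal003 libraries the transcripts split by position. The counts of *mt-Nd1* per count of *mt-Cytb* were 2.90, 3.01, 2.76, and 3.08 with Sal003 and 0.939, 0.913, 0.858, and 0.963 with IL-4/IL-13. The Sal003 libraries stood apart from all 20 others, which lay between 0.768 and 1.01. On the log2 scale the difference between Sal003 and IL-4/IL-13 was 1.68 with an SD of 0.040 over mice (exact permutation test, adjusted *P* = 0.0429). The same held for *mt-Nd2* over *mt-Cytb*, with a log2 difference of 1.65 (SD 0.046), and for *mt-Nd1* over *mt-Co1*, with 1.26 (SD 0.062), by the same test and at the same adjusted *P*. The ratio of *mt-Nd1* to *mt-Nd2* differed by 0.03 (SD 0.047, exact permutation test, adjusted *P* = 0.252). The largest step between neighbouring genes of the 6 was that of *mt-Nd2* over *mt-Co1*, with a log2 difference of 1.23 (SD 0.017). These 2 genes are separated on mtDNA by 5 tRNA genes, and from *mt-Co1* to *mt-Cytb* the log2 fold changes were between -1.36 and -1.77. Sal003 mouse 4 had higher counts than the other Sal003 libraries in all 6 heavy-strand genes, and its *mt-Nd1* to *mt-Cytb* ratio of 2.76 was the lowest of the 4.

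Oligomycin gave another split. The ratio of *mt-Nd1* to *mt-Nd2* was 0.806, 0.857, 0.833, and 0.828 in set A and 0.805, 0.858, 0.726, and 0.841 in set B. In the 16 libraries without oligomycin it was between 1.51 and 1.77, with no overlap. The log2 difference from IL-4/IL-13 was -0.996 (SD 0.046) in set A and -1.04 (SD 0.082) in set B, each at an adjusted *P* of 0.0429 (exact permutation test). These 2 protein genes are neighbours on the transcript. Their log2 ratio differed by 0.04 between IL-4/IL-13 and naive libraries (SD 0.085, exact permutation test, adjusted *P* = 0.467) and by 0.05 with tunicamycin (SD 0.036, adjusted *P* = 0.0429). Sets A and B did not separate in this ratio (log2 difference 0.04, SD 0.10, exact permutation test, adjusted *P* = 0.726). For *mt-Nd1* and *mt-Cytb*, at opposite ends of the transcript, the log2 ratio with oligomycin differed from that with IL-4/IL-13 by -0.07 (SD 0.096) in set A and -0.04 (SD 0.16) in set B, within the spread (exact permutation test, adjusted *P* = 0.377 and 0.745).

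Relative to *mt-Cytb*, *mt-Co1* was lower with IL-4/IL-13 than in any other group. The counts of *mt-Co1* per count of *mt-Cytb* were 5.95, 5.50, 5.83, and 6.19 in naive libraries and 3.82, 3.82, 3.96, and 4.03 with IL-4/IL-13, a log2 difference of -0.59 (SD 0.052, exact permutation test, adjusted *P* = 0.0429). All 20 other libraries were above the IL-4/IL-13 libraries. The log2 difference from IL-4/IL-13 was 0.64 (SD 0.043) with tunicamycin, 0.42 (SD 0.055) with Sal003, 0.74 (SD 0.075) in oligomycin set A, and 0.82 (SD 0.16) in set B, each at an adjusted *P* of 0.0429 (exact permutation test). Between the strands, *mt-Cytb* counts per *mt-Nd6* count were 104, 115, 120, and 105 with IL-4/IL-13 and 57.6, 40.7, 61.1, and 34.5 with Sal003. That is a log2 difference of -1.23 (SD 0.37), without overlap. The same ratio differed by -0.60 (SD 0.16) with tunicamycin and by -0.61 (SD 0.16) in oligomycin set A, at the same adjusted *P*, and by -0.13 (SD 0.35, exact permutation test, adjusted *P* = 0.745) in set B.

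**Figure D3:**
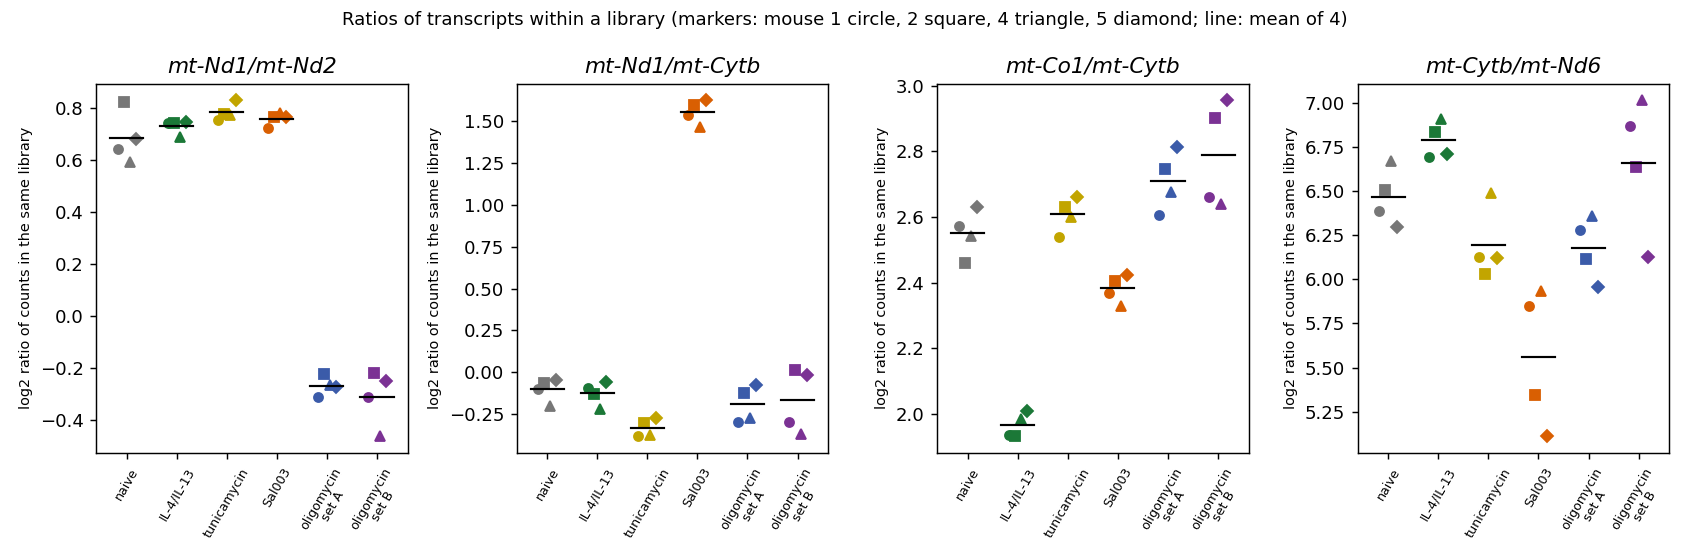
Log2 ratios of the counts of 2 transcripts in the same library, for 4 of the 21 pairs, by group. Marker shapes stand for the 4 mice and lines for the mean of 4 libraries. Sal003 libraries are apart from all others in *mt-Nd1*/*mt-Cytb*, both oligomycin sets in *mt-Nd1*/*mt-Nd2*, and IL-4/IL-13 libraries are lowest in *mt-Co1*/*mt-Cytb*.

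Along the heavy-strand transcript, the starts of the 6 genes lie 2750 (*mt-Nd1*), 3913 (*mt-Nd2*), 5327 (*mt-Co1*), 10166 (*mt-Nd4*), 11741 (*mt-Nd5*), and 14144 (*mt-Cytb*) bases from the start of *mt-Tf*, the first gene. Spearman's correlation between this distance and the log2 fold change over the 6 genes was -0.83 with Sal003, and 0.43, -0.14, and -0.14 with tunicamycin, oligomycin set A, and oligomycin set B. It was 0.09 with IL-4/IL-13. These coefficients describe 6 genes that share libraries and a precursor and carry no test. With oligomycin, the 5 genes from *mt-Nd2* onward fell more the further they lay, from 1.32 to 2.24 log2 units in set A and from 1.52 to 2.51 in set B, and *mt-Nd1* at the start was outside this order.

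**Figure D4:**
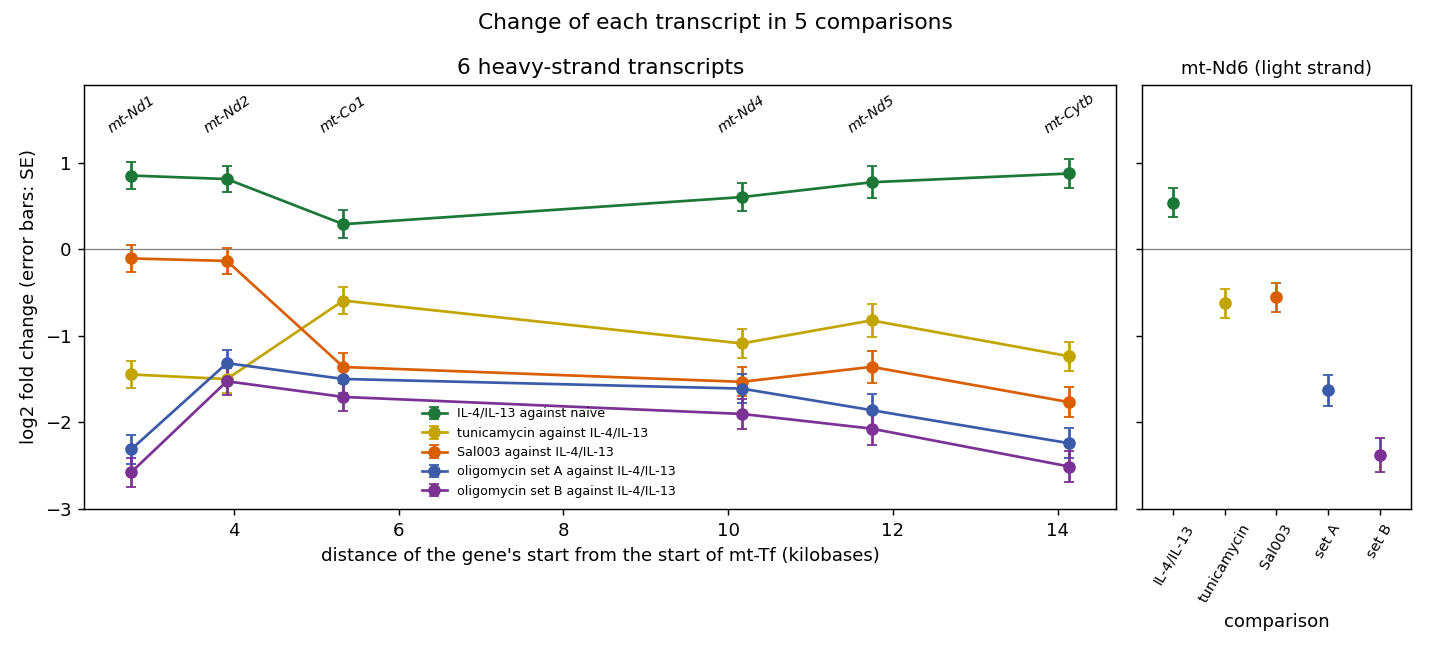
Log2 fold change of each transcript (error bars, SE) in 5 comparisons. The left panel places the 6 heavy-strand genes by the distance of their start from the start of *mt-Tf* in kilobases, and the right panel gives *mt-Nd6*. With Sal003 *mt-Nd1* and *mt-Nd2* are near 0 and the 4 later genes between -1.36 and -1.77, and with oligomycin *mt-Nd1* is the lowest point and *mt-Nd2* the highest.

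The 2 oligomycin sets, which differ in ISRIB, were compared with each other. Set A had the higher mean for all 7 transcripts, and 1 of the 7, *mt-Nd6*, was called, where 19.9% of all genes tested were higher in set A. *mt-Nd6* was at 2.84 to 3.55 CPM in set A, above the 1.65 to 2.28 CPM of set B without overlap (41.6% of all genes did not overlap), and higher in all 4 mice (log2 fold change 0.75, SE 0.22, adjusted *P* = 0.00756). The call was lost without mouse 2 (0.67, adjusted *P* = 0.057). Log2 differences of the other 6 genes were 0.21 to 0.29, with SEs of 0.16 to 0.19 and adjusted *P* values of 0.168 to 0.397, and were not called. Set A was higher in 4 of 4 mice for *mt-Nd1*, *mt-Nd4*, *mt-Cytb*, and *mt-Co1* and in 3 of 4 for *mt-Nd2* and *mt-Nd5*. With a term for the mouse these 6 differences were also not called (edgeR, adjusted *P* of 0.119 to 0.315). The 3 ratios that differed between the sets were those of *mt-Nd6* to *mt-Nd1*, *mt-Nd2*, and *mt-Co1*. Their log2 differences, set A minus set B, were -0.51 for *mt-Nd1* per *mt-Nd6*, -0.55 for *mt-Nd2* per *mt-Nd6*, and -0.56 for *mt-Co1* per *mt-Nd6* (SD 0.19, 0.24, and 0.17, exact permutation test, adjusted *P* = 0.0429 for each). By the titles set A is the group with ISRIB, and by the library names it is set B, so that no direction is given for ISRIB here.

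Across all 24 libraries the 7 transcripts fell into sets by how alike their log2 CPM values were. Pearson's *r* was 0.955 to 0.985 among *mt-Nd4*, *mt-Nd5*, *mt-Cytb*, and *mt-Co1*, and 0.917 between *mt-Nd1* and *mt-Nd2*. Between *mt-Nd2* and *mt-Co1*, adjacent protein genes of the transcript, it was 0.496, the lowest of the 21 pairs. *mt-Nd6* was most like *mt-Nd1*, at 0.899. The genes outside mtDNA with the pattern most like the mean of the 6 heavy-strand transcripts, among those with a mean of at least 50 counts, were *Top2b* (*r* = 0.894), a DNA topoisomerase, *Hjurp* (0.891), a chaperone of centromeric histone, *Fads6* (0.883), *Slbp* (0.873), which binds histone mRNA, and *Cdc6* (0.872), a DNA replication licensing factor. Closest to *mt-Nd6* were *Tardbp* (0.849), *Lsm6* (0.835), *Aldh16a1* (0.828), *Hmgb1* (0.824), and *Ddx46* (0.811). Likeness in pattern did not mean a like range. *Top2b* had mean levels of 115 CPM in naive libraries, 127 CPM with IL-4/IL-13, and 87.8 CPM in oligomycin set A, and *Cdc6* had 3.27, 9.72, and 0.589 CPM. These coefficients are over 24 libraries that share 4 mice and 6 treatments.

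The respiratory complexes also hold subunits from nuclear genes. Of 54 nuclear-encoded subunits of complexes I, III, and IV, 48 rose with IL-4/IL-13 and 0 fell, where 30.1% of all genes rose and 30.4% fell, with a median log2 fold change of 0.61. Cytochrome c1 (*Cyc1*) rose from 63.0 to 158 CPM (log2 fold change 1.32, SE 0.061) and the complex III core protein *Uqcrc1* from 140 to 295 CPM (1.08, SE 0.061). With tunicamycin 44 fell and 2 rose (median -0.59; 37.6% of all genes fell), and with Sal003 27 fell and 0 rose (median -0.21; 24.6% of all genes fell). In oligomycin set A 46 fell and 0 rose (median -0.55; 32.2% of all genes fell), and in set B 34 fell and 0 rose (median -0.31; 26.4% of all genes fell). The complex III hinge protein *Uqcrh* had the largest falls, from 124 CPM with IL-4/IL-13 to 25.2 CPM with tunicamycin (-2.29, SE 0.12) and 27.8 CPM in oligomycin set A (-2.15, SE 0.12). Adjusted *P* values of these genes were 1.19e-14 (*Uqcrh*, tunicamycin) and 8.23e-14 (set A). Between the oligomycin sets, 28 nuclear subunits were lower and 1 higher in set A (median -0.21; 21.3% of all genes were lower). The 7 mtDNA transcripts had a median of 0.26, but only 1 of them, *mt-Nd6*, was called. An opposite direction of the 2 groups of genes is therefore not established. Of the 54, 7 changed beyond 2-fold with IL-4/IL-13, 11 with tunicamycin, 0 with Sal003, 7 in oligomycin set A, 0 in set B, and 1 between the sets. The share of all genes beyond 2-fold was not computed, so whether these counts are high or low for genes in general is not known.

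**Figure D5:**
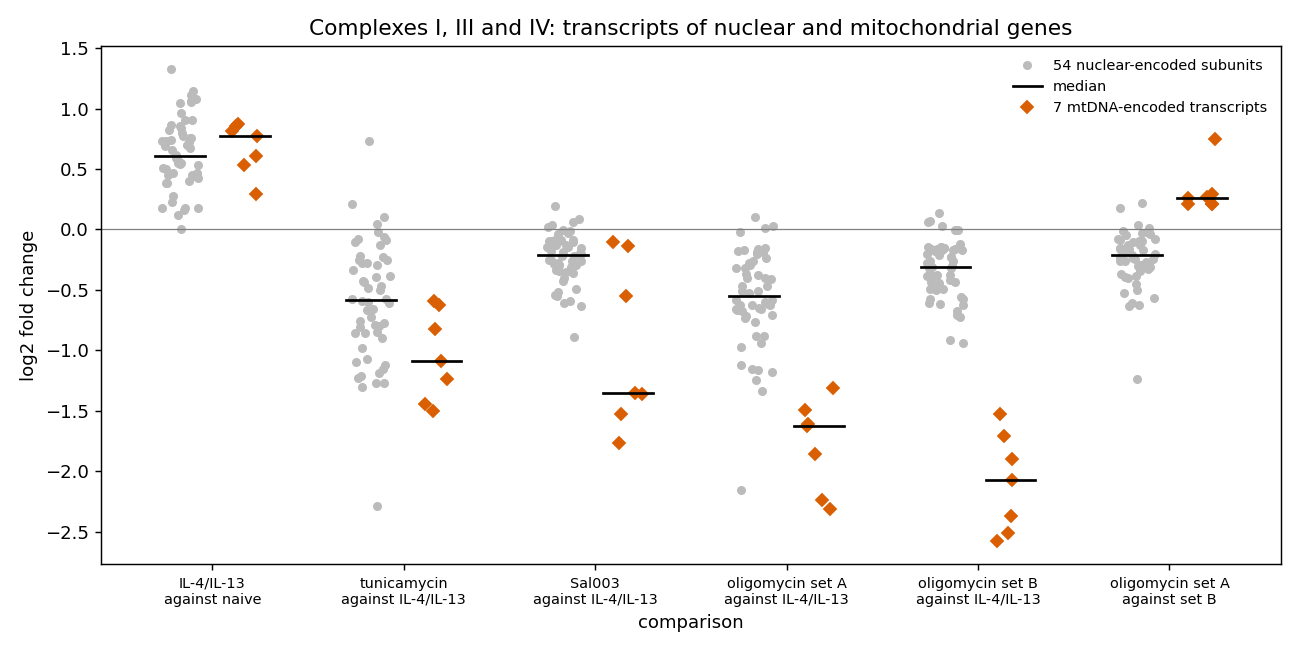
Log2 fold changes of 54 nuclear-encoded subunits of complexes I, III, and IV (gray points) and of the 7 mtDNA-encoded transcripts (orange diamonds) in 6 comparisons. Lines are medians, and points are spread sideways for legibility. Medians are 0.61 and 0.78 with IL-4/IL-13, and -0.31 and -2.07 in oligomycin set B.

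A list of 47 genes, of which 46 passed the filter, was examined for the transcription of mtDNA and the upkeep of its RNA. The list is wider than that. It also holds genes for replication of mtDNA, the protease gene *Lonp1*, and regulators of nuclear genes such as *Ppargc1b*, so its counts do not stand for 1 function. With IL-4/IL-13 15 rose and 7 fell (median log2 fold change 0.08), near the 30.1% of all genes that rose. Against IL-4/IL-13, 30 rose and 8 fell with tunicamycin (median 0.33), 17 and 7 with Sal003 (0.13), 28 and 7 in oligomycin set A (0.29), and 18 and 10 in set B (0.14). Of all genes, 38.7, 25.9, 34, and 27.9% rose and 37.6, 24.6, 32.2, and 26.4% fell in these comparisons. More of the list was thus higher than lower with every inhibitor, where the mtDNA transcripts were lower. The same held with IL-4/IL-13 against naive, where the mtDNA transcripts were higher. Between the oligomycin sets, 22 were higher and 4 lower in set A (median 0.16), where 19.9% of all genes were higher and 21.3% lower. The mitochondrial RNA polymerase *Polrmt* was between 23.5 and 29.3 CPM in all group means and rose with IL-4/IL-13 (log2 fold change 0.15, SE 0.056, adjusted *P* = 0.0259), further with Sal003 (0.17, SE 0.055, adjusted *P* = 0.0114), and in oligomycin set A (0.13, SE 0.055, adjusted *P* = 0.0481). *Tfam*, which packages mtDNA and activates its promoters, was between 22.8 and 29.5 CPM and rose with IL-4/IL-13 (0.22, SE 0.054, adjusted *P* = 0.00122) and with tunicamycin (0.16, SE 0.053, adjusted *P* = 0.00983), and the elongation factor *Tefm* between 6.84 and 9.24 CPM. *Tfb2m*, which opens the promoter for the polymerase, fell with tunicamycin (-0.34, SE 0.096, adjusted *P* = 0.00232), oligomycin set A (-0.69, SE 0.097, adjusted *P* = 9.82e-07), and oligomycin set B (-0.36, SE 0.096, adjusted *P* = 0.00247), and was at -0.18 with Sal003 (SE 0.095, adjusted *P* = 0.128).

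*Lrpprc* and *Slirp* form a complex that stabilizes mitochondrial mRNAs and promotes their polyadenylation. *Lrpprc* rose with IL-4/IL-13 from 45.3 to 72.7 CPM (log2 fold change 0.68, SE 0.051, adjusted *P* = 2.04e-11) and was at 84.8 CPM with tunicamycin, 80.3 CPM with Sal003, 93.4 CPM in oligomycin set A, and 75.1 CPM in set B. *Slirp* stayed between 18.0 and 22.4 CPM and was called only between the oligomycin sets (-0.27, SE 0.091, adjusted *P* = 0.0191). The coactivator *Ppargc1b*, a regulator of nuclear genes for mitochondria, rose from 3.13 to 36.5 CPM with IL-4/IL-13 (3.53, SE 0.13, adjusted *P* = 1.06e-17). It fell with every inhibitor, to 1.46 CPM with tunicamycin, 14.1 CPM with Sal003, 5.13 CPM in oligomycin set A, and 11.4 CPM in set B.

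The other 7 members of this list that changed beyond 2-fold in any comparison were *Pde12*, *Lonp1*, *Rexo2*, *Top1mt*, *Tfb1m*, *Trmt61b*, and *Mterf2*. Their fold changes are given only where they passed 2-fold, and smaller changes in other groups are not all listed. *Pde12*, which shortens poly(A) tails of mitochondrial mRNAs, rose from 26.2 to 73.4 CPM with IL-4/IL-13 (1.48, SE 0.060, adjusted *P* = 9.83e-17) and fell to 32.0 CPM with tunicamycin (-1.20, SE 0.059, adjusted *P* = 1.46e-15). Its mean was also below IL-4/IL-13 with Sal003 (50.6 CPM), in oligomycin set A (39.3 CPM), and in set B (45.7 CPM). *Lonp1*, the matrix protease that degrades TFAM, rose from 62.6 CPM with IL-4/IL-13 to 222 CPM with tunicamycin (1.83, SE 0.046) and 221 CPM in oligomycin set A (1.82, SE 0.046). The *Lonp1* mean was 81.3 CPM with Sal003 and 117 CPM in set B. *Rexo2*, an oligoribonuclease, rose 1.41 log2 units with tunicamycin (SE 0.054), and *Top1mt*, the mitochondrial topoisomerase I, rose with tunicamycin (1.11, SE 0.10) and in oligomycin set A (1.37, SE 0.099). *Tfb1m* and *Trmt61b*, methyltransferases of mitochondrial RNA, rose 1.39 (SE 0.093) and 1.94 (SE 0.11) log2 units with tunicamycin. *Mterf2* fell from 0.954 to 0.192 CPM with IL-4/IL-13 (-2.29, SE 0.34, adjusted *P* = 2.19e-06). Its group means were all low, 0.0846 to 0.954 CPM, so that this change rests on few reads. The remaining members did not pass 2-fold with an adjusted *P* under 0.05 in any comparison.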

How the data were processed

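RNA-seq libraries from 24 BMDM cultures were analysed. Per the labels and the study's methods, the authors made mRNA libraries (Watchmaker) sequenced as single reads of 150 bases, trimmed them with Cutadapt 1.8, removed ribosomal reads, aligned with STAR 2.7 to GRCm39, and counted with HTSeq 0.9.1. The deposited values used are these raw counts per gene. A table of RSEM values was not used, since its header has 28 names over 25 columns. A share of 12.7 to 15.2% of reads, on entries that name no gene, was left out.

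Counts were tested with edgeR 4.0.16 (R 4.3.3; TMM, filterByExpr by group, quasi-likelihood fit, 1 coefficient per group over 24 libraries), checked on simulated counts. The median biological coefficient of variation was 7.06%. Replicates of a group differed by more than sampling noise (chi-square per gene of 2.19 to 35.9). Log2 CPM used a prior count of 2. By the titles, a shared number marks a shared mouse, and the deviations of such libraries from group means correlated (median 0.236, 56 of 60 pairs above 0.1). Gene positions and sequences are from GRCm39 with GENCODE vM39, in which 56323 identifiers were found, and nuclear copies from BLAST+ 2.17.0 and exact 150-base matches.

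The 7 genes and both gene lists were chosen with earlier results of these data known. Named genes were the 7, the 5 genes most like each strand's pattern, list members past 2-fold, and *Polrmt*, *Tfam*, *Tfb2m*, *Tefm*, *Lrpprc*, and *Slirp*. Alternatives were DESeq2 1.42.0, other normalizations and filters, the compared groups alone, a replicate block, and leaving out each mouse.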

Additional observations from a re-analysis of the deposited data

Results flagged for a closer look

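Of 42 groups of 4 libraries (7 genes in 6 groups), 3 had 1 library farther from the others than Dixon's 95% limit for 4 values, and chance alone gives about 1 in 20. In oligomycin set B, mouse 4 had 273 CPM of *mt-Nd2*, beside 188 to 199 CPM in the other mice, and 1596 CPM of *mt-Co1*, beside 1229 to 1245 CPM. With Sal003, mouse 1 had 5.09 CPM of *mt-Nd6*, beside 7.22 to 7.47 CPM. The cause was not tested.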

How the results depend on the processing

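The number of the 7 transcripts called higher or lower stayed within 1.5 times its value in 140 of 144 recalculations. The 4 exceptions were in the comparison of the oligomycin sets, where 2 were higher in set A in place of 1 with library size alone, without a filter on low counts, and with the 2 groups compared alone. Leaving out 1 mouse gave 0 to 1, with 0 without mouse 2. The added calls were *mt-Nd4* (0.41 and 0.30 on the log2 scale with library size alone and without a filter) and *mt-Nd1* (0.27 in the groups alone). Of 504 recalculated fold changes of single genes, 499 kept their direction and side of the threshold or were uncalled in both, 4 became called, and 1, *mt-Nd6* between the sets without mouse 2, was lost. No called fold change or ratio changed sign. With Sal003 the uncalled *mt-Nd1* and *mt-Nd2* were at -0.35 and -0.35 without mouse 4 and at 0.09 and 0.06 without mouse 5. Of the neighbours in the order of the groups, 14 to 23 were not distinguished, in place of 17. The replicate block, with a term for the mouse, changed no call of the 7 (*mt-Nd6* between the sets, 0.77, adjusted *P* = 0.000203 by edgeR).

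With library size alone, 35.5% of called genes were higher with Sal003 in place of 51.3%, 40.2% in oligomycin set B in place of 51.5%, and 70.3% in set A against set B in place of 48.2%, where the median of all genes moved to 0.11 and *mt-Nd4* from 0.29 to 0.41. With 30 counts in its lowest library, *mt-Nd6* is the least precise of the 7. With 4 libraries a group, the exact tests cannot go below a *P* of 0.0286.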
